A study of Xenopus laevis with 4 samples.

Results

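Genes of the tailbud, the presomitic mesoderm and segmentation were followed in posterior explants of *Xenopus laevis* tailbud embryos. The genes were chosen by name: 31 base symbols of transcription factors, Notch effectors, segment boundary genes and somite genes were looked up, with any copy number and with the L and S copies (homeologs) that this allotetraploid frog carries. The lookup found 55 gene models, 28 L and 27 S, for 25 of the symbols, out of 39176 genes in all. No gene model carried the symbols esr5, evx2, her1, mesp1, ripply1 or meox1. By role, 8 gene models belonged to the tailbud, 14 to the presomitic mesoderm and its clock, 14 to the segment boundary, 17 to the somite, and 2 copies of tcf21 to tissue outside the somite.

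Each library was made from total RNA of 3 pooled explants of stage 26 embryos cut behind the otic vesicle. The picrotoxin group had 2 pools kept for 3 h with 0.5 mM picrotoxin, a blocker of the chloride channel of GABA-A receptors, and the control group had 2 pools kept for 3 h without it. The ventral yolk was removed afterwards in both groups. The labels name neither a vehicle for the control pools nor the clutches used. The p-values rest on the spread between pools, with the variance of each gene moderated by that of all genes. Whether they cover the spread between clutches is not known.

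In vertebrate embryos the tail grows from a bud of progenitors that feeds the presomitic mesoderm on each side of the notochord. Cells there pass through a clock of Hes genes driven by Notch, and at the front of the tissue Mesp and Ripply factors set the next boundary and shut the presomitic program down. The somite that forms then turns on genes of its own and splits into sclerotome, which makes the axial skeleton, and dermomyotome, which makes muscle and dermis.

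Libraries held 20285273 and 20974160 estimated counts with picrotoxin, against 18164631 and 20660589 in control. Ribosomal RNA took 42.0% and 25.1% of the picrotoxin libraries and 38.0% and 39.6% of the control libraries, so picrotoxin replicate 2 stood apart. Levels below are CPM, counts per 1000000 counts of the TMM-scaled library. They are not divided by transcript length, and levels of different genes are therefore not ranked. The 18 gene models of posterior Hox genes summed to 342 and 377 CPM with picrotoxin and 342 and 339 CPM in control. Of 11 gene models for forebrain and midbrain factors, 4 never exceeded 3 counts, and the list summed to 9.10 to 11.0 CPM, of which rax.S, a copy of a retinal homeobox gene, had 4.45 to 7.29 CPM. The six3.S copy had 19 to 37 counts in a library, emx1.L had 9 to 29 and emx1.S had 8 to 34. Where the cut lay was not tested by these sums.

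No member passed the threshold. The lower values gathered in the segment boundary group and, in the tailbud group, in cdx4 and evx1. The L and S copies of a gene count as separate members. Of 46 members with enough counts to test, 0 passed an adjusted p of 0.05 in the quasi-likelihood test of edgeR (Benjamini-Hochberg over 26752 genes), where 0.176% of all genes passed, 0.0822% higher and 0.0935% lower. DESeq2 also called 0 of the 33 members to which it gave an adjusted p, against 0.123% of its genes. At an unadjusted p of 0.05, 9 of the 46 members lay lower with picrotoxin, 19.6% of them, against 4.16% of all genes, and 0 lay higher, against 3.35% (7.51% of all genes in either direction). These 9 were both cdx4 copies, both evx1 copies, both pcdh8 copies, mespb.L, ripply2.2.S and hes6.1.S. The count of 9 was 4 without picrotoxin replicate 1, 7 without picrotoxin replicate 2, 6 without control replicate 1 and 5 without control replicate 2. By DESeq2, 2 members had an unadjusted p under 0.05, both cdx4 copies, against 2.71% of all genes. With libraries scaled by their totals alone 0 members lay lower at that p. That setting moved the median log2 fold change of all genes to 0.11, and its p-values were not corrected for this shift. Both picrotoxin libraries lay below both control libraries for 15 of the 46 members, against 18.9% of all genes, and above them for 6, against 18.2%.

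**Figure D1:**
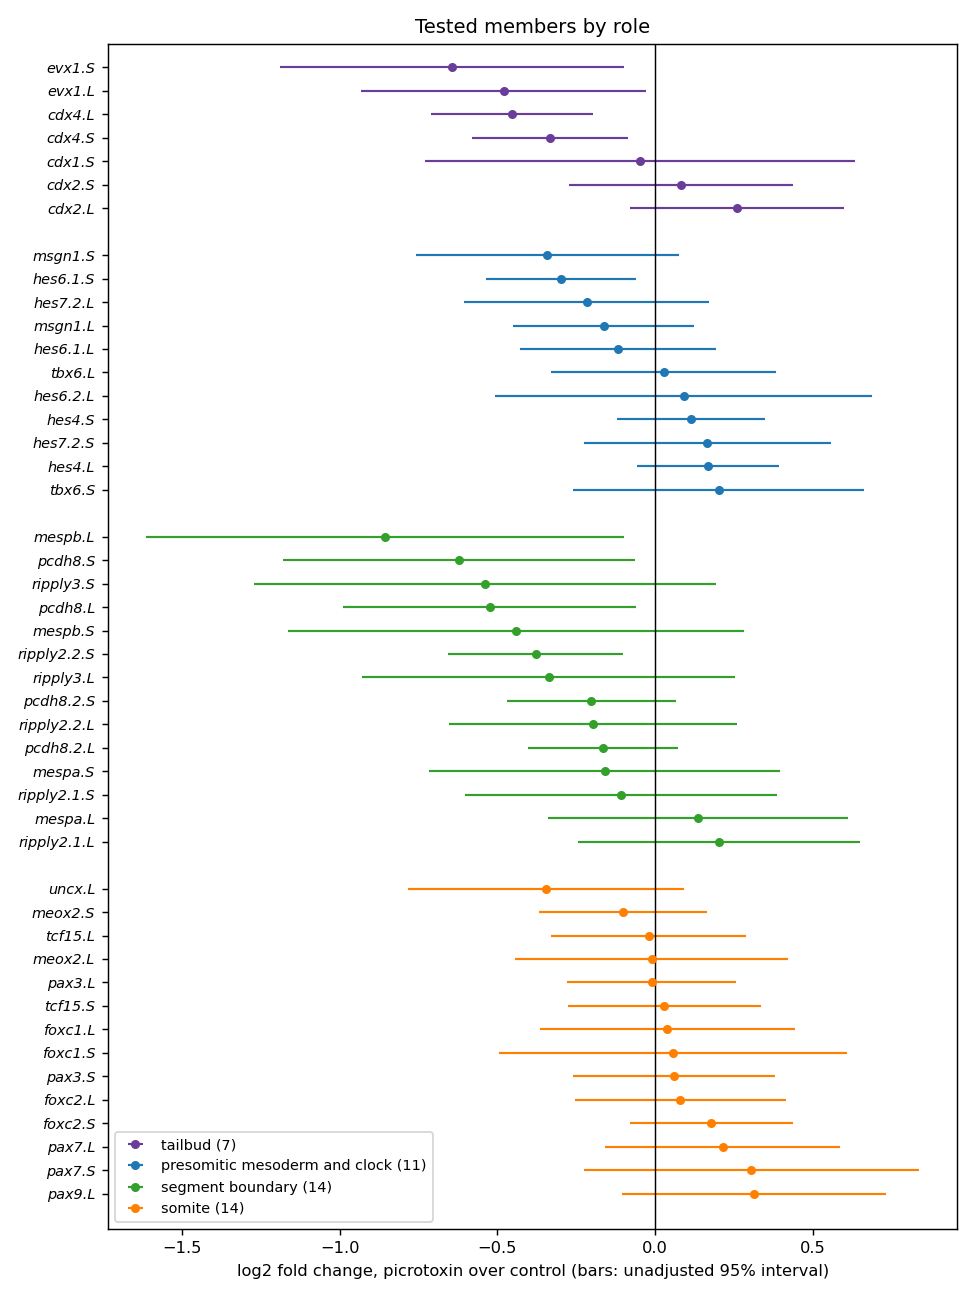
Log2 fold change of each of the 46 tested members, picrotoxin over control, by role, with its unadjusted 95% interval (n = 2 libraries per group). The intervals of cdx4, evx1, pcdh8, mespb.L, ripply2.2.S and hes6.1.S lie below 0, and every interval of the somite group includes 0.

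Tailbud genes came first in the order of roles, and the caudal-type homeobox gene cdx4, which marks the posterior growth zone and activates Hox genes, had the smallest p of all members. The cdx4.L copy had 25.1 and 30.7 CPM with picrotoxin, against 42.3 and 34.5 CPM in control. Both picrotoxin pools thus lay under both control pools, at a log2 fold change of -0.45 ± 0.12 (SE; 95% interval -0.71 to -0.20; adjusted p = 0.228, edgeR). The cdx4.S copy had 17.3 and 20.1 CPM with picrotoxin and 24.7 and 22.6 CPM in control, with no overlap either (log2 fold change -0.33 ± 0.12, adjusted p = 0.451, edgeR). Whether cdx4.L passed depended on the setting, and it did not pass in the main fit. With no filter on low counts its adjusted p was 0.0234 (edgeR), in a fit where 189 genes passed, beside 47 in the main fit. It was 0.343 with a replicate block and 0.249 with chromosome medians removed (edgeR), and 0.688 by DESeq2. Its log2 fold change was -0.61 without picrotoxin replicate 2 and -0.32 without picrotoxin replicate 1. It was -0.30 without control replicate 1 and -0.60 without control replicate 2.

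The related gene cdx2, expressed in posterior tissue and gut in vertebrates, lay on the other side of 0. Its L copy stood at 22.2 and 31.8 CPM with picrotoxin and 21.0 and 24.3 CPM in control, so the groups overlapped (log2 fold change 0.26 ± 0.16, adjusted p = 0.770, edgeR). The S copy stood at 8.35 and 12.6 CPM with picrotoxin and 10.4 and 9.52 CPM in control (0.08 ± 0.17). In both copies picrotoxin replicate 2 was the high library, and without it the fold changes were -0.03 for cdx2.L and -0.25 for cdx2.S. The 8 gene models listed for gut and endoderm summed to between 7.13 and 13.8 CPM over the 4 libraries, with overlapping groups, and their part in the cdx2 values was not tested. The third family member, cdx1, was rare. The cdx1.S copy had 25 to 44 counts in a library and a fold change of -0.05 ± 0.33, and cdx1.L had 5 to 11 counts and was not tested.

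The even-skipped homeobox gene evx1, which is used in the tail tip and, in mouse, in V0 interneurons of the spinal cord, had nearly equal levels in the picrotoxin pools. The evx1.L copy had 2.98 and 3.01 CPM with picrotoxin, against 3.86 and 4.48 CPM in control (log2 fold change -0.48 ± 0.22, adjusted p = 0.623, edgeR). The evx1.S copy had 1.92 and 1.89 CPM with picrotoxin, against 2.61 and 3.32 CPM in control (-0.64 ± 0.26, adjusted p = 0.551, edgeR). Both copies lay lower in both picrotoxin pools, but they rested on 36 to 89 counts in a library. With the copies summed, evx1 had a log2 fold change of -0.54 ± 0.18 (adjusted p = 0.365, edgeR) and cdx4 one of -0.41 ± 0.11 (adjusted p = 0.202, edgeR). In these explants fewer cells of a type and less RNA per cell cannot be told apart.

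**Figure D2:**
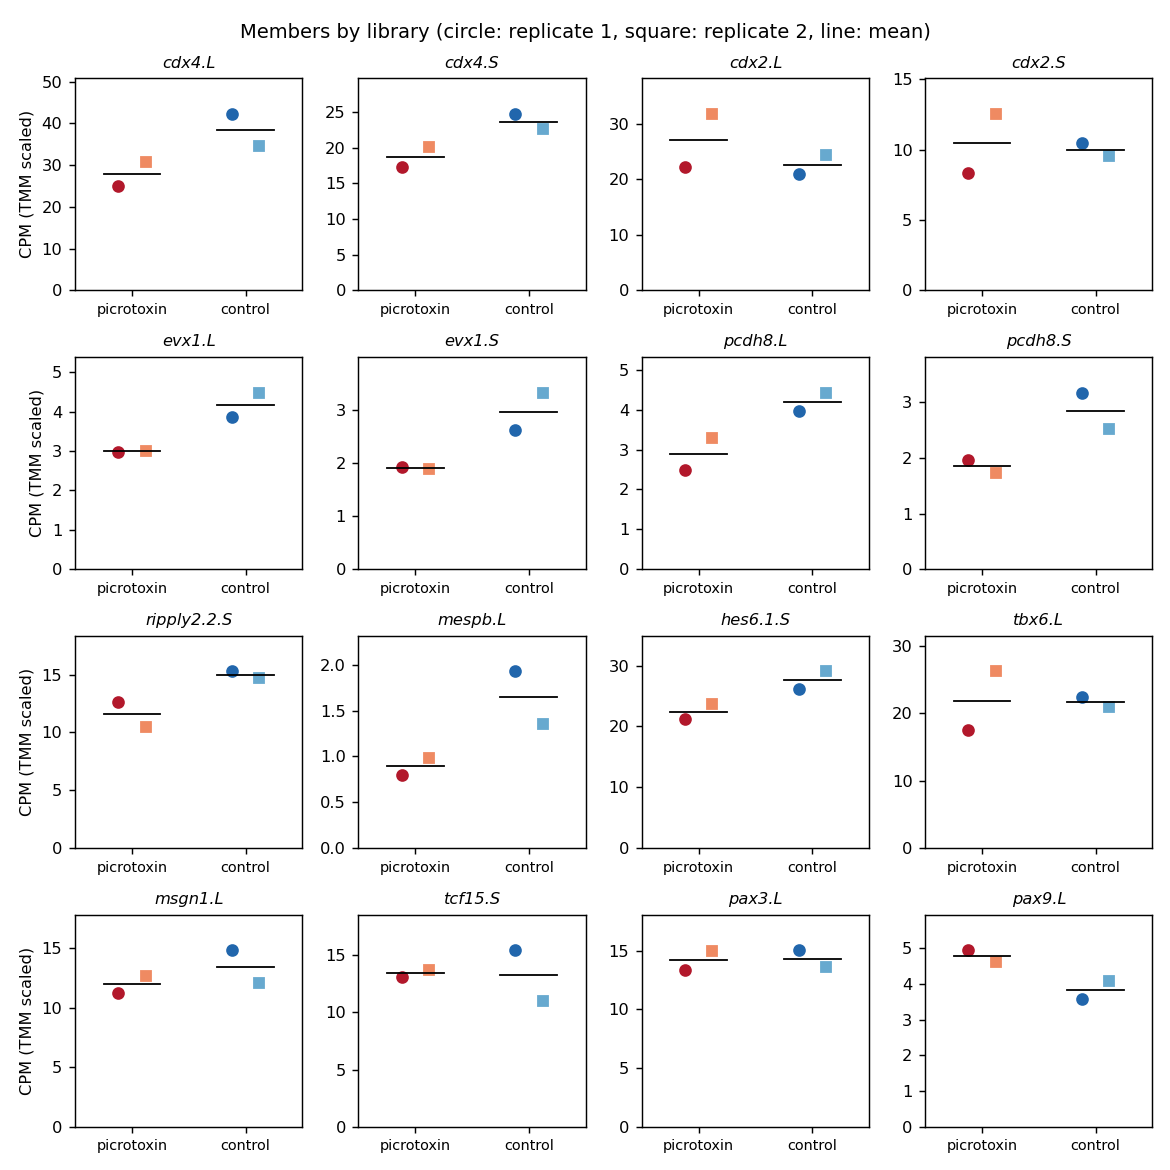
TMM-scaled CPM of 16 gene models in each library, with picrotoxin left of control, replicate 1 as circles, replicate 2 as squares and the group mean as a line; each vertical axis starts at 0. The cdx4, evx1 and pcdh8 copies show no overlap between groups, while cdx2, tbx6.L, msgn1.L, tcf15.S and pax3.L overlap.

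Presomitic mesoderm genes lay on both sides of 0. The T-box gene tbx6, which commits cells to paraxial mesoderm, had 17.6 and 26.2 CPM of tbx6.L with picrotoxin and 22.4 and 20.9 CPM in control, so the picrotoxin libraries were both the lowest and the highest (log2 fold change 0.03 ± 0.16). Its S copy had 3.62 and 4.98 CPM with picrotoxin and 3.18 and 4.33 CPM in control (0.20 ± 0.22). The bHLH gene msgn1 (mesogenin), which acts beside tbx6 in that commitment, had 11.2 and 12.7 CPM of msgn1.L with picrotoxin and 14.8 and 12.1 CPM in control (-0.16 ± 0.14). For msgn1.S the picrotoxin libraries, at 3.51 and 4.74 CPM, both lay below the control libraries, at 5.05 and 5.49 CPM (-0.34 ± 0.20, adjusted p = 0.750, edgeR).

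The Hes genes encode bHLH repressors, several of them Notch targets, and here they lay on both sides of 0. The hes4 gene, known in *Xenopus* as hairy2, had 28.6 and 27.9 CPM of its L copy with picrotoxin, against 25.4 and 24.9 CPM in control (log2 fold change 0.17 ± 0.11, adjusted p = 0.786, edgeR). Its S copy overlapped, at 24.8 and 26.1 CPM with picrotoxin and 24.9 and 22.2 CPM in control (0.12 ± 0.11). The hes6.1.S copy lay on the other side, with 21.2 and 23.7 CPM with picrotoxin and 26.2 and 29.1 CPM in control (-0.30 ± 0.11, adjusted p = 0.505, edgeR). Hes6 antagonises other Hes repressors and is also used in neural precursors and muscle. For hes6.1.L the groups overlapped, at 8.19 and 9.72 CPM with picrotoxin and 10.3 and 9.22 CPM in control. The hes7.2 copies, related to the clock gene of mouse, pointed in opposite directions, at -0.22 ± 0.19 for the L copy and 0.17 ± 0.19 for the S copy. Both copies of hes7.1 had at most 5 counts in a library and hes6.2.S at most 11, so these were not tested. The hes6.2.L copy had a fold change of 0.09 ± 0.29.

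At the segment boundary, 12 of 14 gene models had a negative log2 fold change, with a median of -0.27, beside 50.1% negative and a median of 0.00 over all genes. Both picrotoxin libraries lay below both controls for 7 of the 14, beside 18.9% of all genes, and above them for 0, beside 18.2%. The protocadherin genes pcdh8 and pcdh8.2 belong to the family of PAPC, which sorts cells at forming boundaries and drives convergent extension. Which of them encodes PAPC was not determined here. The pcdh8.L copy had 2.50 and 3.29 CPM with picrotoxin and 3.97 and 4.43 CPM in control (-0.52 ± 0.23, adjusted p = 0.576, edgeR). The pcdh8.S copy had 1.97 and 1.73 CPM with picrotoxin and 3.18 and 2.52 CPM in control (-0.62 ± 0.27, adjusted p = 0.585, edgeR). Neither copy overlapped between groups. The family member pcdh8.2 was closer to 0, with 30.2 and 36.1 CPM of its L copy with picrotoxin and 40.0 and 34.6 CPM in control (-0.17 ± 0.11), and -0.20 ± 0.13 for its S copy.

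Ripply proteins turn T-box activators such as Tbx6 into repressors and end the presomitic program at the boundary. The ripply2.2.S copy had 12.6 and 10.5 CPM with picrotoxin, against 15.3 and 14.7 CPM in control, without overlap (log2 fold change -0.38 ± 0.13, adjusted p = 0.450, edgeR). Its L copy, at 3.09 and 4.53 CPM with picrotoxin and 4.82 and 4.03 CPM in control, overlapped (-0.20 ± 0.22). The ripply2.1 copies were at 0.20 ± 0.22 (L) and -0.11 ± 0.24 (S). The ripply3 gene, used in the pharynx in mouse, was at -0.34 ± 0.29 (L) and -0.54 ± 0.36 (S), from 17 to 53 counts in a library. The 8 gene models listed for pharyngeal arches and pouches summed to 16.4 and 19.6 CPM with picrotoxin and 16.2 and 20.9 CPM in control.

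The Mesp genes encode bHLH factors that mark the next boundary. For mespb.L, 15 and 24 counts with picrotoxin and 34 and 27 counts in control gave 0.798 and 0.988 CPM against 1.93 and 1.36 CPM (log2 fold change -0.86 ± 0.37, adjusted p = 0.576, edgeR). This was the member farthest from 0 among the 46 and, with few counts, the one with the largest standard error. The mespb.S copy overlapped, at 1.17 and 1.28 CPM with picrotoxin and 1.19 and 2.12 CPM in control. The mespa copies, known in *Xenopus* as thylacine, were at 0.14 ± 0.23 (L) and -0.16 ± 0.27 (S), with overlapping groups.

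Somite genes had a median log2 fold change of 0.05 over 14 gene models, which was -0.10 without picrotoxin replicate 2 and 0.15 without picrotoxin replicate 1. Of the 14, 9 were positive and 5 negative, beside 50.1% negative over all genes, and 0 had an unadjusted p under 0.05, beside 7.51% of all genes. The bHLH gene tcf15 (paraxis), which makes somites epithelial, had 13.1 and 13.8 CPM of tcf15.S with picrotoxin and 15.4 and 11.0 CPM in control (0.03 ± 0.15; 95% interval -0.28 to 0.34), and its L copy was at -0.02 ± 0.15. The forkhead genes foxc1 and foxc2, which act in paraxial mesoderm, ran from 0.04 to 0.18 over their 4 copies. Among these, foxc2.S had 15.5 and 17.5 CPM with picrotoxin, above the 14.9 and 14.4 CPM of control (0.18 ± 0.13).

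Dermomyotome genes ran from a log2 fold change of -0.10 for meox2.S to 0.31 for pax7.S. The paired box gene pax3 had 13.4 and 15.0 CPM of pax3.L with picrotoxin and 15.0 and 13.6 CPM in control (log2 fold change -0.01 ± 0.13; 95% interval -0.28 to 0.26), and pax3.S was at 0.06 ± 0.16. Its relative pax7, a gene of muscle progenitors, had 6.12 and 5.56 CPM of pax7.L with picrotoxin and 5.05 and 4.99 CPM in control (0.21 ± 0.18), and pax7.S was at 0.31 ± 0.26. Both pax7 copies were higher in both picrotoxin libraries, as were 18.2% of all genes, and neither passed (adjusted p = 0.859 for each, edgeR). Their 95% intervals, -0.16 to 0.59 (L) and -0.23 to 0.84 (S), included 0. The homeobox gene meox2 was at -0.01 ± 0.21 (L) and -0.10 ± 0.13 (S). Pax3 and pax7 also act in the dorsal neural tube and neural crest. The 17 gene models listed for dorsal neural tube and roof plate summed to 123 and 128 CPM with picrotoxin and 127 and 138 CPM in control, and the 10 for neural crest to 133 and 135 against 121 and 138 CPM. Their part in the pax3 and pax7 values was not tested.

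Sclerotome genes split. The homeobox gene uncx, which marks the rear part of the somite in mouse, had 3.25 and 3.38 CPM with picrotoxin, against 4.14 and 4.28 CPM in control (log2 fold change -0.35 ± 0.21, adjusted p = 0.768, edgeR). The paired box gene pax9 had 4.95 and 4.61 CPM with picrotoxin, against 3.58 and 4.08 CPM in control (0.31 ± 0.20, adjusted p = 0.780, edgeR). In neither gene did the groups overlap, beside 18.9% of all genes wholly lower and 18.2% wholly higher with picrotoxin. The 7 gene models listed for sclerotome and cartilage summed to 430 and 433 CPM with picrotoxin and 419 and 398 CPM in control. Most of each sum was col2a1.L, with 265 and 271 CPM with picrotoxin and 246 and 260 CPM in control. The sox9 copies of this list are also in the neural crest list. The part of the sclerotome in these sums was not tested. Other sclerotome factors had few counts, with 8 to 11 counts of pax1.S in a library, 3 to 8 of nkx3-2.L and 1 to 5 of nkx3-2.S. Both tcf21 copies had at most 8 counts. None of these was tested.

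The tailbud and segment boundary groups were also set against the somite group of the same library, each as a deviation from its own mean over the libraries. The mean log2(CPM + 0.5) of the 7 tailbud gene models, taken relative to its mean over the 4 libraries and minus the same for the 14 somite gene models, was -0.18 and -0.08 with picrotoxin and 0.16 and 0.10 in control. For the segment boundary group this difference was -0.11 and -0.18 with picrotoxin and 0.18 and 0.11 in control, and for the 11 presomitic gene models -0.06 and -0.03 with picrotoxin and 0.08 and 0.01 in control. The medians of the log2 fold changes were -0.33 for the tailbud, 0.03 for the presomitic, -0.27 for the boundary and 0.05 for the somite group. The tailbud median is the value of cdx4.S, and both cdx2 copies of that group were positive. Without picrotoxin replicate 2 the presomitic median was -0.25 and the somite median -0.10. The median over all genes was 0.00, and these medians are descriptions with no test.

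**Figure D3:**
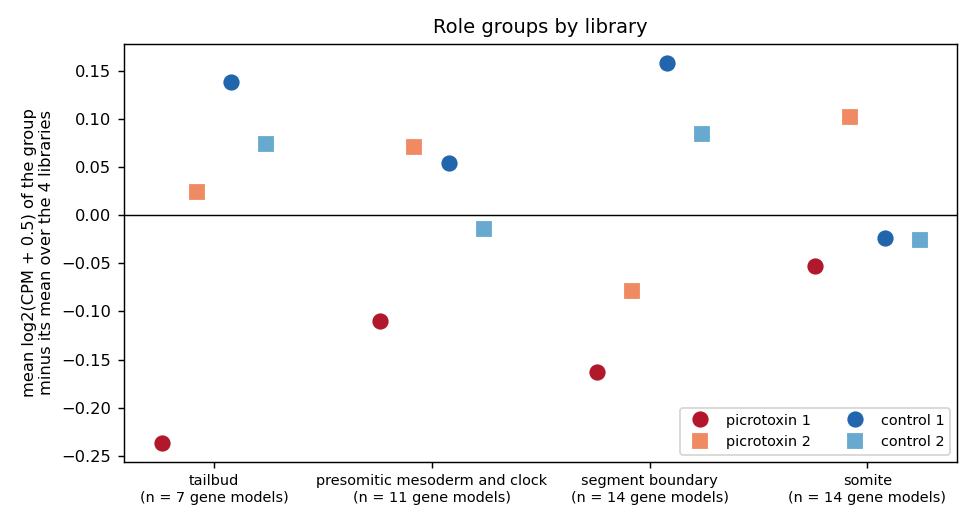
Mean log2(CPM + 0.5) of each role group in each library, minus its mean over the 4 libraries, with picrotoxin left of control. In the segment boundary and tailbud groups both picrotoxin libraries lie below both control libraries; in the other groups they overlap, and picrotoxin replicate 2 lies above replicate 1 in every group.

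Ratios between members counted in the same library do not depend on the scaling. With L and S copies summed, the counts of cdx4 were 1.39 and 1.15 times those of cdx2 with picrotoxin, against 2.13 and 1.69 times in control. On the log2 scale this difference was -0.59, and the exact permutation test over the 4 libraries gave a two-sided p of 0.333, which is the smallest p that 2 libraries against 2 allow. The ratio of pcdh8 to pcdh8.2 was 0.102 and 0.103 with picrotoxin and 0.127 and 0.143 in control. That of ripply2.2 to ripply2.1 was 2.54 and 2.06 with picrotoxin and 3.05 and 2.94 in control, and that of hes6.1 to hes4 was 0.550 and 0.618 with picrotoxin and 0.726 and 0.813 in control. These ratios restate the fold changes of members already given and are no further evidence of them. The family pair foxc1 to foxc2 overlapped, at 0.290 and 0.296 with picrotoxin and 0.263 and 0.366 in control.

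Against tcf15, a gene of the somite group, cdx4 stood at 1.92 and 2.14 with picrotoxin and 2.77 and 2.65 in control, and msgn1 at 0.667 and 0.733 with picrotoxin and 0.822 and 0.817 in control. The ratio of tbx6 to tcf15 overlapped, at 0.959 and 1.31 with picrotoxin and 1.06 and 1.17 in control. In all, 12 such ratios were computed, chosen after the values were seen and sharing genes. The ratios of evx1 to cdx2 and of uncx to pax9 had been computed at first and were replaced. For 10 of the 12 both picrotoxin libraries lay below both control libraries, and 2 overlapped. Those 10 had an exact p of 0.333, the smallest that the test allows here, and an adjusted p of 0.400 (Benjamini-Hochberg over the 12). The test could therefore call no ratio with so few libraries, and nothing is concluded from it. As the ratios were chosen after the values were seen, the count of 10 is a description only. The size of a ratio also reflects transcript lengths.

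**Figure D4:**
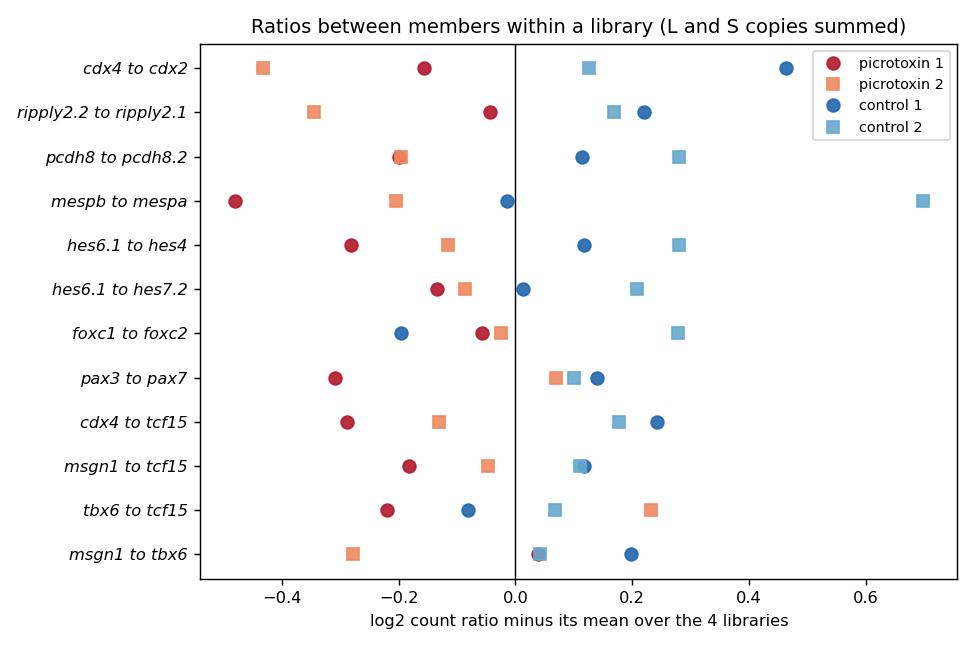
Log2 ratio of the counts of 2 members in each library, L and S copies summed, minus its mean over the 4 libraries. The first gene of a pair is on top of the ratio; the picrotoxin libraries lie left of the control libraries for cdx4 to cdx2 and pcdh8 to pcdh8.2, and overlap with them for tbx6 to tcf15 and foxc1 to foxc2.

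Each pair divided its counts between L and S in its own way. In 21 pairs both copies were tested, and 14 of them drew over 50% of their counts from the L copy in every library, while 5 drew under 50% in every library. The L share was 82.8% to 87.6% for tbx6 and 68.8% to 76.2% for msgn1 over the 4 libraries. The S copy dominated in meox2, where L held 18.6% to 23.1%, in ripply2.2, with 19.7% to 30.1%, and in hes6.1, with 24.1% to 29.1%. For cdx4 the L share was 59.2% and 60.5% with picrotoxin and 63.1% and 60.4% in control, and the groups overlapped. Of the 21 pairs, 17 overlapped between groups, and the L share was higher in both picrotoxin libraries for 3 (evx1, mespa and ripply2.1) and lower in both for 1, hes7.2. For hes7.2 it was 46.6% and 48.0% with picrotoxin, against 54.1% and 53.9% in control. How many of all L and S pairs separate in this way was not computed, so these counts of pairs are not read as a change in copy use. The L shares are of counts, not per length, and how well the counting told the copies apart is not known.

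**Figure D5:**
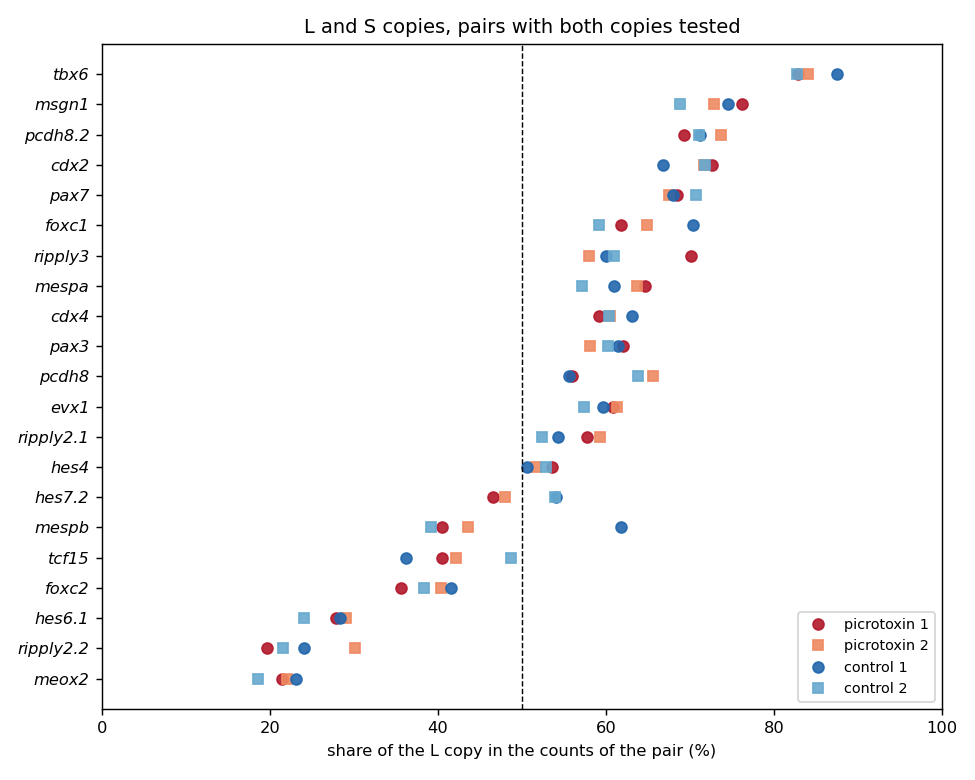
Share of the L copy in the summed counts of each pair, in percent, for the 21 pairs with both copies tested; each point is 1 library and the dashed line marks 50%. The share runs from 18.6% for meox2 to 87.6% for tbx6, and mespb and hes7.2 are the pairs that lie on both sides of 50%.

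Other genes of the pathway were read beside the members. Of 122 gene models tested, 1 passed the threshold: the Notch ligand gene dll1.S, which presomitic cells and new neurons use, fell to 14.3 and 13.5 CPM with picrotoxin, against 19.8 and 23.1 CPM in control (log2 fold change -0.63 ± 0.12, adjusted p = 0.0341, edgeR). Its L copy had 12.2 and 12.5 CPM with picrotoxin, against 16.3 and 16.5 CPM in control (-0.41 ± 0.13, adjusted p = 0.310, edgeR). Over all genes 0.176% passed. Of the 122, 82 were negative, beside 50.1% of all genes, with a median of -0.09. At an unadjusted p of 0.05, 13 lay lower, beside 4.16% of all genes, and 4 lay higher, beside 3.35%. The 13 held several gene models of hes5, namely hes5.1.L, hes5.1.S, hes5.3.S, hes5.10.S and hes5.10.L. Many other hes5 gene models are in the list and each counts separately, so these counts do not describe as many different genes. The Notch effector hes5.1.L was at -0.52 ± 0.15, the T-box gene tbx15.S at 0.45 ± 0.13, the retinoic acid degrading enzyme gene cyp26a1.S at 0.38 ± 0.13 and the muscle determination gene myod1.S at 0.29 ± 0.11. None of these passed. For the L copies the groups overlapped, at 0.20 ± 0.14 for tbx15.L, 0.07 ± 0.16 for cyp26a1.L and 0.05 ± 0.12 for myod1.L. The tailbud T-box gene tbxt (brachyury), picked after its values were seen, was at -0.11 ± 0.20 for its L copy and -0.14 ± 0.19 for its S copy. A further gene model of that name, tbxt.2.S, had 3.09 and 3.29 CPM with picrotoxin and 5.28 and 4.03 CPM in control, without overlap (-0.54 ± 0.22, adjusted p = 0.543, edgeR).

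Several members are also used in the neural tube, and its markers were summed beside them. The 8 gene models listed for neural tube progenitors (sox2, sox3, nes, fabp7 and msi1) summed to 124 and 126 CPM with picrotoxin, against 178 and 169 CPM in control. All 8 lay lower at an unadjusted p of 0.05, beside 4.16% of all genes. The list was chosen with earlier results of these data known, so this count is a description and no independent support. Of the 8, 1 passed the threshold, fabp7.L, where 0.0935% of all genes passed as lower. The 9 gene models for V0 and other spinal interneurons summed to 25.3 and 25.9 CPM with picrotoxin and 28.8 and 27.7 CPM in control. Of the 8 tested, 0 had an unadjusted p under 0.05, and their median log2 fold change was -0.30. Most of each sum was pax2.L and lhx1.S, and both lhx1 copies are also in the pronephros list. The dbx1 copies were at -0.78 ± 0.55 (L) and -0.42 ± 0.35 (S), from 5 to 45 counts in a library. Only pax2.L and lbx1.L were positive. How far the sum follows V0 cells was not tested. The part of neural tissue in the values of evx1, hes6.1 and cdx4 was not tested. Among other tissues, the summed levels of the lists overlapped between groups for skeletal muscle (9022 and 8016 CPM with picrotoxin, 10029 and 8322 CPM in control), for lateral plate (14.8 and 20.9 CPM with picrotoxin, 15.5 and 16.3 CPM in control) and for ciliated epidermis (51.8 and 57.6 CPM with picrotoxin, 64.7 and 53.1 CPM in control). Of the 12 muscle gene models tested, 3 lay lower and 3 higher at an unadjusted p of 0.05, beside 4.16% and 3.35% of all genes. For the pronephros the summed levels did not overlap, at 20.8 and 23.7 CPM with picrotoxin and 28.7 and 27.3 CPM in control. Those of sclerotome and cartilage, given above, did not overlap either, and there the picrotoxin sums were the higher ones. How often lists of other genes separate in this way was not computed.

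The depth limits what these values can show. The tested members had between 15 and 877 counts in a library, and standard errors of log2 fold changes ran from 0.11 to 0.37. The unadjusted 95% interval stayed within a 2-fold change either way for 41 of the 46, and for the other 5 it reached past a 2-fold lower level.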

How the data were processed

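The deposited table gives unscaled estimated counts of 80178 RefSeq transcripts for each of the 4 libraries. Library preparation was strand-directional, per the labels' protocols, and the sources used here give neither aligner, counter nor build. All identifiers, version included, were found in RefSeq's Xenopus_laevis_v10.1 gene table, and counts were summed to 39176 genes and rounded; the design had assumed whole counts. After filterByExpr and TMM scaling, edgeR 4.0.16 in R 4.3.3 fitted group alone (robust glmQLFit, then a two-sided glmQLFTest), and p-values were adjusted by Benjamini-Hochberg over 26752 genes. The standard error is the log2 fold change divided by the root of F, and intervals use the total degrees of freedom of that test. The fit was tested on simulated data, with changed genes drawn among those with a mean of at least 50 counts. A first version drew them from all tested genes, recovered fewer and fell short of the recovery required. The test therefore does not cover members with low counts such as mespb, ripply3, cdx1.S, evx1.S and pcdh8.S. Library totals of 18164631 to 20974160 counts set the depth. Every pair of libraries differed by more than sampling noise (chi-square over its degrees of freedom of 3.66 to 5.52, ribosomal RNA left out). DESeq2 1.42.0, other scalings and filters, summed L and S copies, chromosome medians, a replicate block and leaving out each library were the alternatives. Marker lists of other tissues were summed. Members, role groups and lists were chosen with earlier results of these data known. All detected members may be named. From the pathway list the called genes and the 6 with the smallest p are named. Named outside that rule are tbxt, the hes5 gene models with an unadjusted p under 0.05 and the L copies of tbx15, cyp26a1 and myod1.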

Additional observations from a re-analysis of the deposited data

How the results depend on the processing

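Of 13 alternatives, none other than no filter on low counts and leaving out picrotoxin replicate 2 called a member: each called 1, cdx4.L, so that 0 to 1 member passed when leaving out each library. Over all genes, 22 passed with library totals only, 189 with no filter on low counts, 30 with chromosome medians removed and 22 with DESeq2's Wald test, beside 47, and 15 to 158 when leaving out each library (of the picrotoxin pools, dropping replicate 1 gave 131 and dropping replicate 2 gave 158; of the control pools, 39 and 15). Members lower at an unadjusted p of 0.05 numbered 0 with library totals only, 2 with DESeq2's Wald test and 4 to 7 when leaving out each library, beside 9; members higher numbered 1 with no filter and 0 to 1 when leaving out each library. Library totals alone moved the median of all genes by 0.11 (log2), and fold changes under that setting are taken relative to it. The p-values under that setting are not, so the counts of genes and members that rest on them include the shift. Leaving out each library, the medians ran from -0.45 to -0.23 in the tailbud, -0.25 to 0.0042 in the presomitic and -0.10 to 0.15 in the somite group. With the replicate number as a block, 0 members and 41 genes passed; same-numbered libraries did not deviate together (correlation of 0.0028 over 16017 genes), so the numbers were not taken as pairs.

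Over the 12 alternatives that give a value per copy, 27 of the 46 members never changed sign, cdx4, evx1, pcdh8, mespb.L, ripply2.2.S and hes6.1.S among them. The same held for uncx.L, pax7, pax9.L and hes4.L. Where the groups of a member do not overlap, leaving out a library can scarcely change its sign. For such members the constant sign restates the separation and is no further evidence. With chromosome medians removed, 3 changed sign, pax3.L (0.028), tbx6.L (-0.0080) and tcf15.S (-0.046). Leaving out each library, log2 fold changes that crossed 0 ran from -0.40 to 0.38 for cdx1.S, -0.028 to 0.49 for cdx2.L, -0.25 to 0.33 for cdx2.S, -0.18 to 0.21 for foxc1.L, -0.28 to 0.53 for foxc1.S, -0.18 to 0.28 for foxc2.L, -0.17 to 0.39 for hes6.2.L, -0.17 to 0.13 for meox2.L, -0.23 to 0.014 for meox2.S. They also ran from -0.16 to 0.49 for mespa.L, -0.36 to 0.064 for mespa.S, -0.78 to 0.042 for mespb.S, -0.096 to 0.067 for pax3.L, -0.16 to 0.24 for pax3.S, -0.51 to 0.037 for ripply2.2.L, -0.30 to 0.28 for tbx6.L, -0.058 to 0.45 for tbx6.S, -0.14 to 0.12 for tcf15.L and -0.20 to 0.29 for tcf15.S. The cause was not tested. With 1 library left in a group, it is assumed to vary like the other group. Depth limits mespb, ripply3, cdx1.S and hes6.2.L among others, with 15 to 53 counts in a library.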
